A study of Homo sapiens with 18 samples.

Results

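Mesenchymal NCI-H358 cells were compared with mesenchymal HCC827 cells, and each difference between the lines was set beside the difference between their parental cells. The comparison rests on 6 of the 18 arrays of the study, 3 of each mesenchymal line, and takes in all 19849 measured genes. The 6 parental arrays of the same lines supply the starting point. HCC827 and NCI-H358 are human non-small cell lung cancer lines, and HCC827 is driven by a mutant EGFR. All groups were grown in RPMI1640 with serum and glutamine, and the parental groups received no TGFβ. The mesenchymal groups had grown in 2 ng/ml TGFβ, for 3 weeks by the sample labels and for 3 to 5 weeks by the methods of the study, and were moved to medium without it on the day before lysis. The mesenchymal state of both lines is therefore that of a cell population held in TGFβ in culture, and the treated cells were lysed after a day without the cytokine.

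In epithelial-mesenchymal transition (EMT), cells give up the junctions and keratins of an epithelium and take on the matrix, motility and cytoskeleton of a mesenchymal cell. TGFβ drives it through SMAD proteins, which raise transcription factors of the ZEB, SNAI and TWIST families, and these repress E-cadherin and the splicing regulators of epithelial cells. Cells of different origin enter the state with different genes open or silenced. The question addressed here is which differences between the lines were still there in the mesenchymal state, which were gone, and which appeared with it.

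Expression is given as RMA values on the log2 scale, with 1 probe set per gene, so a difference of 1 is a doubling, and a level is read only against the same gene in another group. Differences are NCI-H358 minus HCC827 throughout, so a positive value means a higher level in NCI-H358. A gene was called when its adjusted p was below 1e-05 and its fold difference above 5 (limma, 1 fit of all 18 arrays, Benjamini-Hochberg adjustment over all 19849 genes). Between arrays of a group, the SD over genes of the log2 difference was 0.163 to 0.282. The first parental HCC827 array lay 0.261 and 0.282 from the other parental arrays of that line, which lay 0.182 from each other. The third mesenchymal HCC827 array lay 0.235 and 0.236 from the others, which lay 0.163 from each other. By the methods of the study, the 3 arrays of a group are separate biological samples that were prepared together, so p values do not cover the spread between experiments made at different times.

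Both lines carried the marks of EMT. CDH1, which encodes E-cadherin, stood at 8.63, 8.67 and 8.71 on the mesenchymal NCI-H358 arrays and at 10.50, 9.89 and 9.93 on the mesenchymal HCC827 arrays, against parental means of 12.61 and 13.06. The 6 epithelial markers (CDH1, EPCAM, KRT8, KRT18, KRT19 and ESRP1) fell in both lines, and the 6 mesenchymal markers (VIM, CDH2, ZEB1, FN1, SNAI1 and SNAI2) rose in both (limma, adjusted p below 0.05 for each). ZEB1 rose to a mean of 9.80 in NCI-H358 and 10.20 in HCC827, and VIM, the intermediate filament vimentin, to 5.92 and 5.57. Not all genes counted as mesenchymal markers rose. S100A4, from the longer list used below, fell in both lines (-1.54 in NCI-H358 and -1.08 in HCC827). Of 12 markers of blood and vessel cells, which lung cancer cells should lack, 0 were called between the mesenchymal lines and 1 passed an adjusted p of 0.05 (CSF1R, 0.70). Their summed log2 level was 58.4 to 60.2 on the mesenchymal NCI-H358 arrays and 57.4 to 59.0 on those of HCC827, and their means in these groups ran from 2.95 to 6.61. Because the arrays read whole cell populations, fewer cells that express a gene and less RNA per cell cannot be told apart in any of the values below.

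Between the mesenchymal lines, 689 of 19849 genes were called, 3.47% of those tested. Of these, 337 were higher in NCI-H358 (1.7%) and 352 lower (1.77%). Between the parental lines, 658 genes were called (3.32%), 319 higher (1.61%) and 339 lower (1.71%). Over all genes, the SD of the line difference was 0.947 in mesenchymal cells and 0.938 in parental cells, and the absolute difference was smaller in the mesenchymal state for 50.1% of genes. Every pair of arrays across the lines gave an SD of 0.954 to 0.966 in the mesenchymal state and of 0.941 to 0.974 in the parental state. By this measure the lines were about as far apart after EMT as before it. The differences in the 2 states had a Pearson r of 0.685 across genes, which are not independent replicates. At an adjusted p below 0.05, the line difference itself differed between the states for 7516 genes, 37.9% of those tested (limma, interaction contrast), 4184 of them towards NCI-H358 and 3332 towards HCC827.

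The called genes fell into 5 classes. Differences called in both states in the same direction are termed kept, and 324 genes (1.63%) were of this kind, 47.0% of the mesenchymal calls and 49.2% of the parental calls. Differences called in mesenchymal cells, below 2-fold in parental cells and changed between the states by the interaction test at an adjusted p below 0.05 are termed gained, and there were 162 (0.816%). Differences called in parental cells, below 2-fold in mesenchymal cells and changed by the same test are termed lost, and there were 158 (0.796%). CPT1A and EPHA4 were called in both states in opposite directions, a class of 2 genes (0.0101%). The remaining 375 genes (1.89%) were called in 1 state only and met none of these criteria. Of the 201 of them called in mesenchymal cells, 191 differed in the same direction in parental cells at an adjusted p below 0.05. Likewise 163 of the 174 called in parental cells differed in the same direction in mesenchymal cells. Genes below 2-fold in the other state mostly went to the gained or lost class, so passing that threshold is largely set by definition. Large changes are among them, such as COL5A1, with folds of 235 in mesenchymal and 2.05 in parental cells.

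**Figure D1:**
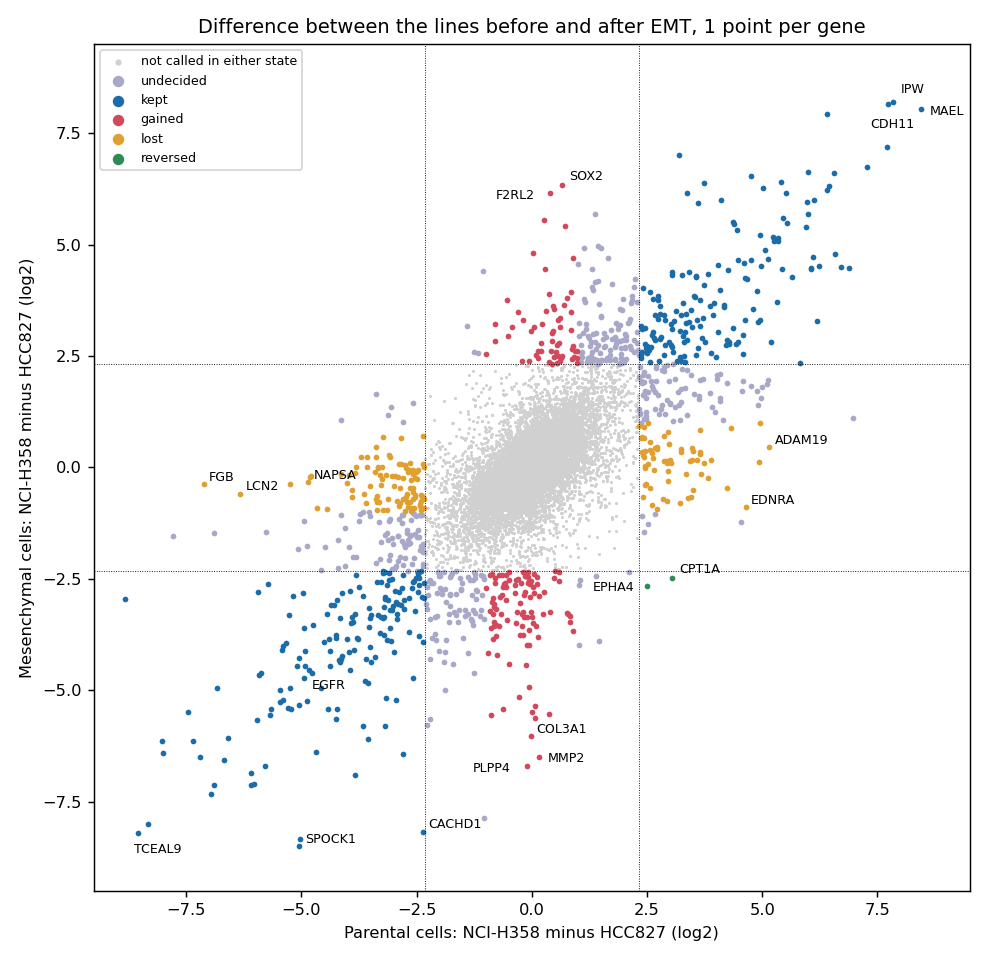
Line difference (NCI-H358 minus HCC827, log2) of each gene in parental cells (horizontal axis) against mesenchymal cells (vertical axis), 1 point per gene, coloured by class, with dotted lines at a 5-fold difference and 36 genes of chromosome Y and XIST not drawn. Kept genes such as MAEL and TCEAL9 lie along the diagonal, gained genes such as SOX2 and MMP2 lie above and below the centre, and lost genes such as FGB and ADAM19 lie to its left and right.

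The kept differences included genes read near the floor of the array in either line and at a high level in the other, before and after EMT. Taking a level below the 25th percentile of the probe sets of a group as low and a level above the 50th as high, 73 kept genes were low in HCC827 and high in NCI-H358 in both states, and 60 were low in NCI-H358 and high in HCC827. These percentiles stand in for detection calls, which the table does not hold, and they rank probe sets rather than amounts of RNA. Where a line reads near the floor, the size of a difference or fold depends on that floor, and such sizes are given as measured and are not ranked. MAEL, which acts in the piRNA pathway that silences transposons in the germ line, read 11.31, 11.44 and 11.33 on the mesenchymal NCI-H358 arrays and 3.31, 3.24 and 3.41 on the HCC827 arrays. The difference was 8.03 in mesenchymal cells (SE 0.12, limma adjusted p = 5.19e-18) and 8.44 in parental cells, and the interaction test did not pass (adjusted p = 0.0794). IPW, a non-coding RNA of the imprinted Prader-Willi region of chromosome 15, read 10.73, 10.84 and 10.79 against 2.60, 2.63 and 2.53. Its difference was 8.20 in mesenchymal and 7.84 in parental cells. SNRPN, a splicing protein gene of the same imprinted region, chosen after its values were seen, differed by 6.41 in mesenchymal and 5.41 in parental cells. The groups did not overlap for any of these genes in either state.

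The other kept genes named towards NCI-H358 were FMR1NB, MAGEA12 and CDH11. FMR1NB, a cancer-testis antigen on the X chromosome, read 10.43, 10.55 and 10.39 in mesenchymal NCI-H358 against 2.56, 2.56 and 2.47 in HCC827. Its difference widened from 6.40 to 7.93 (interaction adjusted p = 4.89e-08), as the NCI-H358 level rose by 1.36 between the states. MAGEA12, a melanoma-associated antigen, read 12.17, 12.11 and 11.90 against 4.86, 4.57 and 5.20, a difference of 7.19 (SE 0.17). CDH11, the cadherin of osteoblasts and other mesenchymal cells, read 11.54, 11.60 and 11.58 against 3.41, 3.29 and 3.56. It is a usual marker of mesenchymal cells, yet mesenchymal HCC827 cells stayed at 3.42 ± 0.14 (SD, n = 3), beside 3.31 in parental cells.

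Towards HCC827, the kept genes named were SPOCK1, CADM1, TCEAL9, CACHD1 and BEX3. TCEAL9 and BEX3, small acidic proteins encoded in the same cluster of the X chromosome, differed by -8.21 and -7.99. TCEAL9 read 3.94, 4.19 and 4.05 on the mesenchymal NCI-H358 arrays and 12.23, 12.24 and 12.33 on those of HCC827. BEX3 read 5.11, 4.83 and 5.70 against 13.16, 13.20 and 13.26, and its parental difference was -8.32. Their neighbours BEX2 and BEX4, chosen after their values were seen, were kept as well. BEX2 narrowed from -5.92 to -4.66, with a change of -1.12 in HCC827 and 0.14 in NCI-H358 (interaction adjusted p = 1.59e-07). BEX4 widened from -4.24 to -5.42, with a change of 1.09 in HCC827 and -0.10 in NCI-H358 (interaction adjusted p = 1.71e-06).

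Other kept genes grew far more unequal with EMT. SPOCK1, a secreted proteoglycan of the testican family, read 4.58, 4.42 and 4.72 in mesenchymal NCI-H358 and 13.03, 13.09 and 13.10 in mesenchymal HCC827. Its difference went from -5.04 to -8.50, with a rise of 3.88 in HCC827 and of 0.42 in NCI-H358 (interaction adjusted p = 5.27e-11). CADM1, an immunoglobulin-like adhesion molecule, followed the same course, from -5.02 to -8.35. CACHD1, which encodes a protein related to the auxiliary subunits of voltage-gated calcium channels, read 3.29, 3.37 and 3.26 against 11.56, 11.47 and 11.42, where parental HCC827 read 5.63, 5.66 and 5.42. Its fold difference was 289 in mesenchymal and 5.15 in parental cells, so the call in parental cells was close to the threshold of 5. Over all kept genes, the difference widened for 74, narrowed for 98 and did not pass the interaction test for 152. SFTA2, a surfactant-associated protein of the lung, narrowed from -8.83 to -2.96, as HCC827 fell from 12.17 to 6.18.

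Bases upstream of the start of MAEL, TCEAL9 and BEX3 are shown because these genes differed by more than 200-fold in both states. The dinucleotide CG, where DNA methylation is placed, is also unevenly spread among them. IPW and CDH11 differed by more than 200-fold in both states as well, and their bases are not shown. The sequences are from RefSeq (GRCh38.p14), 5′ to 3′ on the strand of the gene, and end at the base before the start of transcription, with each CG in capitals. They lie at chr1:166975382-166975581, chrX:103356306-103356505 and chrX:103376123-103376322, all on the plus strand.
MAEL: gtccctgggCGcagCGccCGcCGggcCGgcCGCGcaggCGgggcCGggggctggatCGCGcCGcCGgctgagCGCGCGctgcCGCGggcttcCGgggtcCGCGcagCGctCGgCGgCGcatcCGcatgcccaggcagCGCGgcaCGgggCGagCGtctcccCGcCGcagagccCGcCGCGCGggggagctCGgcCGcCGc
TCEAL9: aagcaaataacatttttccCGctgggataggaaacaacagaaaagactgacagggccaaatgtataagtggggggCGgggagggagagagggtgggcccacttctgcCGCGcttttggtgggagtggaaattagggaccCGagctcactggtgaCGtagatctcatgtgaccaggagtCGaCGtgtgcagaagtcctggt
BEX3: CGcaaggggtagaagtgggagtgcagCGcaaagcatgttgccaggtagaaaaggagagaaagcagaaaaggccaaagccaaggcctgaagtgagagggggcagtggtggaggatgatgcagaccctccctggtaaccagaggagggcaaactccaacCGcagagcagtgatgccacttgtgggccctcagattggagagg
The 200 bases hold 40 copies of CG for MAEL, 8 for TCEAL9 and 3 for BEX3. Over 300 bases around the start (250 before, 50 after), the counts were 60, 10 and 7. In the same window the median count was 23 over 14992 measured genes with a promoter in the reference, 20 over 227 kept genes, 13 over 49 kept genes low in HCC827 and 23 over 40 kept genes low in NCI-H358. MAEL, of the group with a median of 13, thus lay far above it, and TCEAL9 below the median of its group. Methylation was not measured, and the counts describe sequence only.

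The gained differences were made mostly by rises. For each gained gene, the line with the larger change between states was noted as a description, without a test. In 77 of the 162 this was a rise in HCC827, in 41 a rise in NCI-H358, in 25 a fall in NCI-H358 and in 19 a fall in HCC827. The median change of the line that rose was 3.22 in HCC827 and 2.44 in NCI-H358, while the other line moved by a median of 0.07 and -0.04.

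Towards HCC827, the gained genes named were PLPP4, MMP2, COL3A1, TNFAIP6 and TMSB15A. MMP2, the gelatinase that cleaves basement membrane collagen, read 12.48, 12.15 and 12.51 on the mesenchymal HCC827 arrays and 6.22, 5.56 and 5.87 on those of NCI-H358. Parental HCC827 read 4.98, 5.60 and 5.54, which overlapped the 5.57, 5.39 and 5.62 of parental NCI-H358. The mesenchymal difference was -6.50 (SE 0.16, limma adjusted p = 2.3e-15), the parental difference 0.15 (adjusted p = 0.469). COL3A1, a chain of fibrillar collagen, rose in both lines, by 8.74 in HCC827 and 2.73 in NCI-H358, and ended at 12.98, 13.01 and 13.31 against 7.11, 6.95 and 7.14. The parental groups overlapped between 4.01 and 4.58. XYLT1, which starts glycosaminoglycan chains, NID1 and NID2, which link laminin to collagen, and the small proteoglycan BGN were also gained (-5.35, -4.21, -3.98 and -3.24), a choice made after their values were seen.

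PLPP4, a phosphatase of phospholipids, read 11.04, 11.03 and 11.38 against 4.51, 4.30 and 4.52 (difference -6.70). TNFAIP6, which binds hyaluronan at sites of inflammation, read 9.12, 9.05 and 9.20 against 3.69, 3.31 and 3.48 (-5.63). TMSB15A, an actin-binding thymosin, read 9.66, 9.79 and 9.88 against 4.25, 4.12 and 4.30 (-5.56). These 3 were rises in HCC827, of 7.10, 6.11 and 5.10, with changes of at most 0.50 in NCI-H358.

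Towards NCI-H358, the gained differences came about in 2 ways. SOX2, a transcription factor of the foregut and of squamous lung cancer, stayed at 10.86, 10.89 and 10.86 in mesenchymal NCI-H358 and fell to 4.14, 4.40 and 5.07 in HCC827, which had read 11.25, 9.80 and 9.91 before EMT. Its difference went from 0.66 (adjusted p = 0.0666) to 6.34 (adjusted p = 6.91e-12), and was 6.60 without the third mesenchymal HCC827 array. ID4, an inhibitor of basic helix-loop-helix transcription factors, fell by 4.37 in HCC827 to 5.30, 5.09 and 5.41, against 10.86, 10.84 and 10.77 in NCI-H358. FRAS1, an extracellular matrix protein under epithelia, fell by 4.95 in HCC827 to 3.82, 3.87 and 4.71, against 8.96, 8.84 and 9.04. F2RL2 and MMP8 took the other way, as rises in NCI-H358. F2RL2, a receptor for thrombin, read 9.15, 9.12 and 9.15 in mesenchymal NCI-H358 against 3.03, 2.76 and 3.19 in HCC827. MMP8, the collagenase known from neutrophils, read 9.05, 8.82 and 8.82 against 3.00, 3.16 and 4.31.

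**Figure D2:**
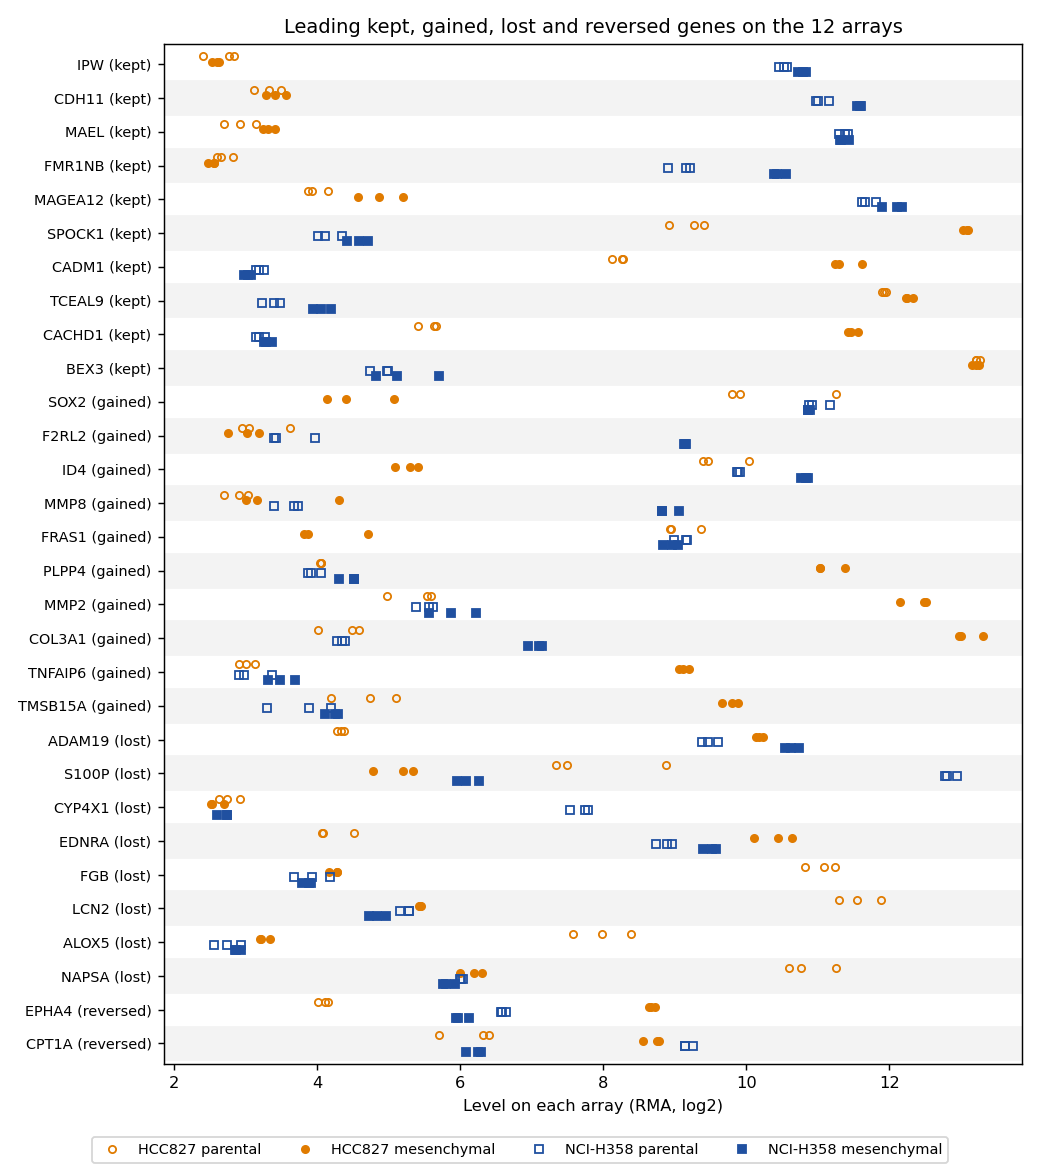
RMA level (log2) of the leading kept, gained, lost and reversed genes on each of the 12 arrays, circles for HCC827 and squares for NCI-H358, open for parental and filled for mesenchymal cells. Filled squares and filled circles lie apart for kept, gained and reversed genes, as for SPOCK1 with 4.42 to 4.72 against 13.03 to 13.10, and draw together for lost genes such as NAPSA.

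Histone genes formed a group of gained differences towards NCI-H358, singled out after their values were seen. Of 56 replication-dependent and other histone genes measured, 14 were called higher in mesenchymal NCI-H358 (25%, against 1.7% of all genes) and 0 lower. Of the 14, 8 were gained, and 0 were called in parental cells. The rest of the 14 already differed towards NCI-H358 in parental cells, by 1.06 (H2BC7) to 2.17 (H2BC21), and were not gained. At an adjusted p below 0.05, 36 were higher and 3 lower, beside 52.6% of all genes that passed in either direction. The median change between states over the 56 genes was 0.42 in NCI-H358 and -0.04 in HCC827. H4C8 read 9.02, 8.80 and 9.10 on the mesenchymal NCI-H358 arrays against 4.92, 4.84 and 5.34 in HCC827, and had a parental difference of 0.84. The linker histone H1-2 read 11.99, 12.01 and 12.18 against 8.06, 8.33 and 8.38. Histone genes are close copies of each other, so a probe set may read several of them, and most of their messages lack the poly(A) tail by which arrays of this kind are usually primed. The proliferation list, which holds genes of mitosis and DNA replication, had a median difference of -0.52 in mesenchymal and 0.29 in parental cells. The histone genes had medians of 0.60 and 0.11. A link between these sets was not tested.

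The bases before the start of 4 gained histone genes are shown for the letters they share, with TATAAA in capitals, from RefSeq (GRCh38.p14), 5′ to 3′ on the strand of the gene. They lie at chr6:26124072-26124171 (plus), chr6:26032100-26032199 (minus), chr6:27809951-27810050 (plus) and chr6:27893186-27893285 (minus).
H2AC6: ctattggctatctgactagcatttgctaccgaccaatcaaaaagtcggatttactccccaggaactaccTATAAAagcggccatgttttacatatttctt
H3C2: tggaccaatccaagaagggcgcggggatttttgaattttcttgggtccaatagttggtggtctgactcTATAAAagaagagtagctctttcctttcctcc
H3C10: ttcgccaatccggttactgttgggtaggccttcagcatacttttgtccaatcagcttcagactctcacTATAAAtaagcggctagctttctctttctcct
H2AC17: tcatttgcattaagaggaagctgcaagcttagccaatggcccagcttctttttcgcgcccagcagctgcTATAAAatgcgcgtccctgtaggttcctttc
The motif starts 31, 32, 32 and 31 bases before the start of transcription. The same letters were absent from the 100 bases before H2BC4, H4C8, H1-2 and H2BC10. Within 300 bases around the start and on both strands, TATAAA was found in 8.57% of 14992 promoters and in 33.3% of the 36 promoters of gained genes that rose in NCI-H358. Without histone genes the share was 25% of 28. Histone promoters are part of the first group by their class, and 33 of 51 hold the motif. Other letters searched in the same 36 promoters were CAGGTG, a ZEB and SNAI box (8.33%, against 19.6% of all promoters), TGANTCA, an AP-1 site (13.9%, 5.62%), CAGACA, a SMAD box (25%, 14.1%), and GGAATG, a TEAD site (11.1%, 11.7%). None of these motifs contains another. These shares are descriptions of small sets and were not tested.

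The lost differences were made mostly by falls. Of the 158, 81 were falls in HCC827 of genes that parental HCC827 held high, 41 were falls in NCI-H358, 24 were rises in HCC827 and 12 were rises in NCI-H358. The median fall was -2.93 in HCC827 and -3.31 in NCI-H358, with medians of -0.05 and -0.18 in the other line.

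Among lost genes that parental HCC827 held high were FGB, LCN2, ALOX5 and NAPSA. FGB, the beta chain of fibrinogen, read 11.24, 11.08 and 10.82 in parental HCC827 against 3.93, 4.18 and 3.68 in parental NCI-H358, a difference of -7.12. In mesenchymal cells it read 4.27, 4.28 and 4.17 against 3.91, 3.88 and 3.79, a difference of -0.38. LCN2, a lipocalin that binds iron carriers of bacteria, went from -6.33 to -0.59, and NAPSA, an aspartic protease that processes surfactant protein, from -4.86 to -0.33. ALOX5, which starts leukotriene synthesis, went from -5.24 to -0.36 (adjusted p = 0.0699). Lost means here that the difference fell below 2-fold and not that the lines became equal. In mesenchymal cells LCN2 still differed at an adjusted p of 0.000469, as did ADAM19 (0.45, 0.000174), EDNRA (-0.90, 0.000113) and S100P (0.98, 0.00482), and FGB and NAPSA at 0.0425 and 0.0421.

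Others fell in NCI-H358. S100P, a calcium-binding protein of secretory carcinomas, fell from 12.78, 12.80 and 12.95 in parental NCI-H358 to 5.96, 6.08 and 6.26, and ended within 2-fold of mesenchymal HCC827 at 4.78, 5.35 and 5.21. CYP4X1, a cytochrome P450, fell by 4.99 in NCI-H358 to the level that HCC827 had in both states (differences of 4.93 and 0.12). TP63, a transcription factor of basal epithelial cells, read 10.00, 9.90 and 10.15 in parental NCI-H358 and 4.98, 5.12 and 5.01 in mesenchymal NCI-H358. ADAM19 and EDNRA came within 2-fold through rises in HCC827. ADAM19, a membrane metalloprotease, rose there by 5.85 to 10.24, 10.13 and 10.18, against 10.63, 10.53 and 10.74 in NCI-H358. EDNRA, the endothelin receptor of smooth muscle, rose by 6.18 to 10.10, 10.45 and 10.64, against 9.58, 9.40 and 9.52, so the order of the lines turned (4.64 and -0.90).

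**Figure D3:**
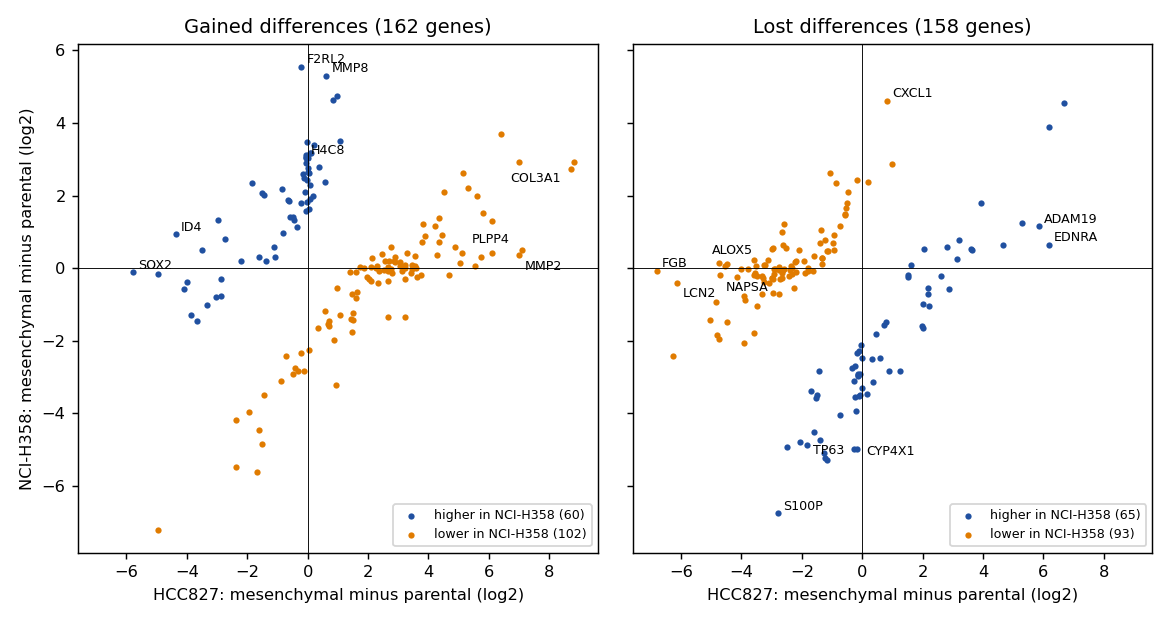
Change from parental to mesenchymal cells (log2) in HCC827 (horizontal axis) and NCI-H358 (vertical axis) for the 162 gained genes (left) and the 158 lost genes (right), 1 point per gene, coloured by the line with the higher level where the difference was called. Gained genes spread mostly to the right and upwards (77 rises in HCC827, 41 in NCI-H358), and lost genes mostly to the left and downwards (81 falls in HCC827, 41 in NCI-H358).

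The lines changed places for 2 genes. CPT1A, which brings long-chain fatty acids into mitochondria for oxidation, read 9.14, 9.14 and 9.26 in parental NCI-H358 against 6.31, 6.40 and 5.71 in parental HCC827. In mesenchymal cells it read 6.25, 6.30 and 6.09 against 8.78, 8.75 and 8.55. The difference went from 3.04 to -2.49 (interaction adjusted p = 1.03e-12), with a fall of 2.97 in NCI-H358 and a rise of 2.56 in HCC827. EPHA4, a receptor tyrosine kinase for ephrins, read 6.64, 6.59 and 6.57 against 4.15, 4.12 and 4.02 in parental cells and 5.94, 5.97 and 6.13 against 8.66, 8.72 and 8.64 in mesenchymal cells. Its difference went from 2.50 to -2.66 (interaction adjusted p = 1.2e-12), mainly by a rise of 4.58 in HCC827. With a fold threshold of 10 in place of 5, 0 genes remained in this class. Below that threshold other genes crossed over as well, among them CCL20, a chemokine of lymphocytes and dendritic cells (-1.05 to 4.40), and SLC1A1, a glutamate transporter (1.03 to -3.99), each at about 2-fold in parental cells.

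The differences were then followed through 27 gene lists with 748 distinct measured genes, of which 82 were called between the mesenchymal lines (10.96%, against 3.47% of all genes). The lists were chosen with results of these data known, so this share is a description.

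**Figure D4:**
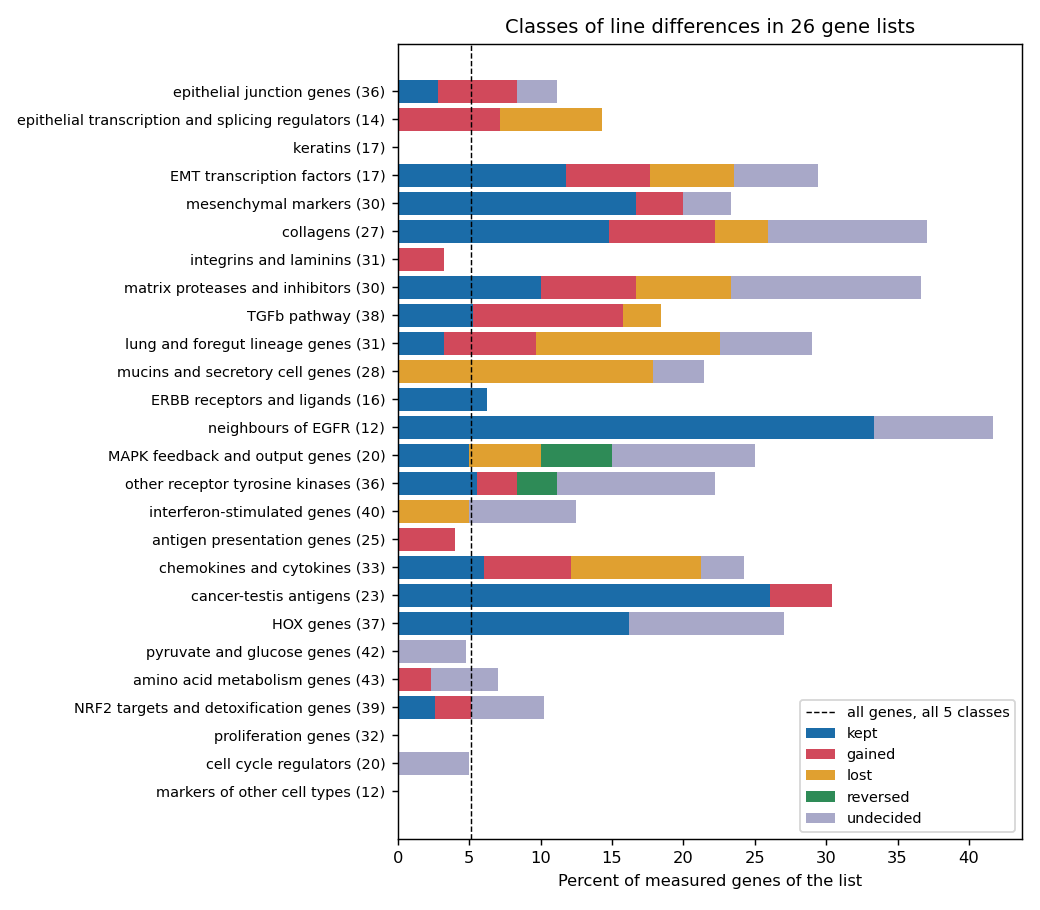
Percent of the measured genes of each of 26 lists (number measured in brackets) in the classes kept, gained, lost, reversed and undecided, with a dashed line at the share of all genes in the 5 classes together. Among the genes in a class, those of the neighbours of EGFR and the cancer-testis antigens were mostly kept and those of the mucins and secretory genes mostly lost, while keratins, proliferation genes and markers of other cell types had none.

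Of 36 genes of epithelial junctions and polarity, 0 were called higher and 3 lower in mesenchymal NCI-H358 (8.33% called, against 3.47% of all genes), among them DSC3. DSC3, a desmosomal cadherin, was kept and widened from -2.58 to -4.72, with a rise of 2.37 in HCC827. Of 14 epithelial regulators, the splicing factor ESRP1 was called lower at -2.38 (fold 5.21), and without the first mesenchymal HCC827 array it was -2.28, below the fold threshold. None of 17 keratins was called, beside 3.47% of all genes. CDH1 itself differed by -1.44 in mesenchymal and -0.45 in parental cells (limma adjusted p = 1.39e-07 and 0.0137), with NCI-H358 lower in both.

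The transcription factors of EMT did not take the same levels in both lines. TWIST2 read 4.82, 4.83 and 4.67 in mesenchymal NCI-H358 and 9.02, 9.08 and 9.13 in HCC827, a kept difference. ZEB2 rose in both lines and further in HCC827 (5.32 and 2.20), which gave a gained difference of -2.54. TCF4, a basic helix-loop-helix factor, was kept at 3.07 towards NCI-H358, although it rose by 2.42 and 2.56. ZEB1 and SNAI1 differed by -0.41 and 0.46. FOXC1, a forkhead factor, was lost, as NCI-H358 fell from 11.20, 11.18 and 11.12 to 7.96, 8.09 and 8.05, where HCC827 lay. In all, 1 of 17 factors was called higher and 2 lower (17.6% called, against 3.47% of all genes).

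Of 30 mesenchymal markers, 5 were called higher in NCI-H358 and 2 lower (23.3% called, against 3.47% of all genes). The cadherin CDH2 read 11.35, 11.38 and 11.29 against 8.32, 8.12 and 8.18, a difference that narrowed from 4.36 to 3.13. S100A4, a calcium-binding protein of motile cells, was kept at 4.51, although it fell with EMT in both lines. The matrix protein POSTN was gained at 3.07, with NCI-H358 arrays at 6.70, 5.48 and 6.49. FSTL1, a secreted glycoprotein, was kept towards HCC827 at -6.86. Of 27 collagens, 1 was called higher (COL8A1, 3.64) and 8 lower (33.3% called). COL8A1 fell with EMT in both lines (-1.91 in NCI-H358 and -1.37 in HCC827). COL5A1 read 4.51, 4.78 and 4.66 in NCI-H358 against 12.51, 12.39 and 12.68, a fold of 235 that had been 2.05 in parental cells. The chains COL4A1 and COL4A2 of basement membrane were kept at -6.90 and -7.10 (parental -3.84 and -6.02). COL10A1, known from cartilage, was gained at -5.50 with HCC827 arrays at 7.62, 8.15 and 8.85. COL1A1, the main fibrillar chain, did not pass the test (-0.17, adjusted p = 0.202), after rises of 3.65 and 4.41. Of 31 integrins and laminins, ITGA2 alone was called (-2.44), a share of 3.23%, near the 3.47% of all genes.

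Proteases went both ways, with 4 of 30 called higher and 3 lower (23.3% called, against 3.47% of all genes). MMP16, a membrane-bound metalloproteinase, read 8.93, 9.03 and 9.04 in mesenchymal NCI-H358 against 3.45, 3.67 and 3.88, and MMP13, a collagenase, 9.28, 9.13 and 9.13 against 5.43, 5.66 and 6.21. Both were kept. Towards HCC827 stood MMP2, ADAM12 (-4.61) and the inhibitor TIMP3 (-3.48). MMP1 was lost, from 3.21 to -0.81, with a rise of 4.66 in HCC827.

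Of 38 genes of the TGFβ pathway, 4 were called higher and 2 lower (15.8% called, against 3.47% of all genes). At an adjusted p below 0.05, 13 were higher and 13 lower, beside 52.6% of all genes that passed in either direction. ID1, ID3 and ID4, targets of BMP signalling that inhibit differentiation factors, were all gained towards NCI-H358 (3.31, 3.75 and 5.56). ID1 read 12.03, 12.03 and 12.11 against 8.94, 8.77 and 8.53, and ID3 read 11.71, 11.61 and 11.76 against 8.16, 7.93 and 7.74. All 3 fell in HCC827, by 4.09, 2.98 and 4.37. The ligand BMP4 was kept at 3.05. BAMBI, a decoy receptor, was kept at -5.24, and the activin subunit INHBA was gained at -3.29 after rises of 7.01 in HCC827 and 2.93 in NCI-H358. The receptor TGFBR2 and the matrix protein TGFBI differed by -0.22 and 0.05 in mesenchymal cells.

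Of 28 mucins and secretory genes, 6 had been called between parental lines and 0 between mesenchymal lines, beside 3.32% and 3.47% of all genes. Of the 28, 5 were lost (LCN2, MUC16, MUC4, TSPAN8 and AGR3). MUC4, a membrane mucin, read 8.96, 7.95 and 7.92 in parental HCC827 and 4.34, 4.46 and 4.39 after EMT, beside 4.36, 4.12 and 4.19 in NCI-H358. Of 31 lung and foregut genes, 7 were called in parental and 3 in mesenchymal cells (SOX2, SFTA2 and the water channel AQP3). These 3 were 9.68% of the list, against 3.47% of all genes. NAPSA, PIGR, HOPX and FOXA2 were lost. NKX2-1, the lung lineage factor, read 7.75, 7.55 and 7.37 in mesenchymal NCI-H358 and 9.46, 9.60 and 9.85 in HCC827, a difference of -2.08 that did not reach 5-fold. SFTPB, a surfactant protein, stood at means of 5.57 to 5.84 in the 4 groups.

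EGFR, the receptor for epidermal growth factor, read 7.21, 7.29 and 7.38 in mesenchymal NCI-H358 against 12.03 ± 0.04 (SD, n = 3) in HCC827, and the difference was -4.74 in mesenchymal and -4.94 in parental cells (interaction adjusted p = 0.169). Of the 12 neighbours on chromosome 7 measured, EGFR included, 5 were called lower and 0 higher (41.7%, against 3.47% of all genes). Of these 5, 4 were kept. LANCL2 differed by -4.55, VOPP1 by -3.72, ZNF713 by -2.77 and NIPSNAP2 by -2.56. SEC61G, PSPH, CCT6A, SUMF2 and CHCHD2 differed by -1.13 to -1.84, while VSTM2A and PHKG1 read below 5.5 on every mesenchymal array. The median over the 12 was -1.84 in mesenchymal and -2.04 in parental cells, beside 0.02 and 0.03 over all genes. The copy number was not measured here.

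Among 16 ERBB receptors, ligands and feedback genes, only EGFR was called in either state (6.25%, against 3.47% of all genes in mesenchymal cells). ERBB3 fell from means of 10.61 and 11.03 to 4.65 in NCI-H358 and 5.38 in HCC827, and the ligand AREG from 13.26 and 12.11 to 8.21 and 7.73. EREG, another ligand, differed by -2.01 in mesenchymal cells and by -0.14 in parental cells. NRG1, which binds ERBB3, went from -1.89 to 0.41, and EGF from 1.84 to -1.42.

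The median difference over 20 feedback and output genes of MAPK signalling was 1.20 in parental and 0.03 in mesenchymal cells. In the mesenchymal state 3 of them were called (15%, against 3.47% of all genes). The phosphatase DUSP4 was kept at 2.74 (10.03, 9.96 and 9.98 against 7.20, 7.19 and 7.38) and SPRY1 was called at 2.87. The third was EPHA4, called lower at -2.66 and reversed from its parental order. EGR1, an immediate early factor, was lost (-2.80 to -0.23) and so was not called in mesenchymal cells. Among 36 other receptor tyrosine kinases, 5 were called higher in NCI-H358 and 2 lower (19.4% called). EPHA3 read 8.42, 8.38 and 8.17 against 2.43, 2.35 and 2.37, and widened from 3.60 to 5.94. NTRK2, the receptor for BDNF, was kept at 3.99. EPHA5 was gained at 3.62 and KIT called at 2.95, and ROR1 was called lower at -2.52. AXL, often raised in mesenchymal tumour cells, differed by 2.24 and did not reach 5-fold.

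Most of the called HOX genes were kept. Of 37 HOX genes, which set position along the body, 7 were called lower in NCI-H358 and 0 higher. These were 18.9% of the list, against 3.47% of all genes, and 6 of them were kept. HOXA3 read 3.19, 3.35 and 3.49 against 8.82, 8.70 and 8.75, HOXB7 4.35, 3.61 and 3.87 against 9.25, 9.20 and 9.17, and HOXC6 4.00, 4.64 and 4.66 against 8.33, 8.26 and 8.22. HOXA10 narrowed, from -5.72 to -2.62.

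Of 23 cancer-testis antigens measured, 6 were called higher in NCI-H358, all kept, and BRDT, a testis bromodomain protein, was called lower and gained (-2.69). Together these were 30.4% of the list, against 3.47% of all genes. MAGEA8 read 10.48, 10.49 and 10.58 against 4.13, 3.79 and 3.82. MAGEA3 and MAGEA6 narrowed, from 6.71 to 4.49 and from 6.88 to 4.46, with HCC827 arrays at 7.32, 7.43 and 8.85 for MAGEA3 and 6.94, 7.16 and 8.50 for MAGEA6. These genes are near-identical, so their probe sets may read each other. The third mesenchymal HCC827 array was the highest for both, and without it the MAGEA3 difference was 4.98.

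Inflammatory genes were found among the kept, gained and lost differences. Of 33 chemokines and cytokines, 1 was called higher (CCL20) and 4 lower (15.2% called, against 3.47% of all genes). CXCL5 and CXCL6, which attract neutrophils, were kept at -6.42 and -5.21, and CCL2, which attracts monocytes, was gained at -3.76. CXCL1 was lost through NCI-H358, which rose from 4.85, 4.50 and 4.85 to 9.26, 9.40 and 9.39. IL11, a cytokine induced by TGFβ, rose in both lines to 12.61, 12.63 and 12.71 in NCI-H358 and 12.47, 12.37 and 12.24 in HCC827. Of 40 interferon-stimulated genes, 4 were called higher in parental NCI-H358 and none of the 4 in mesenchymal cells. There, XAF1 alone was called (-2.76), 2.5% of the list against 3.47% of all genes. In the list 2 genes were lost, and 3, XAF1 among them, were called in 1 state only and met none of the class criteria. The highest difference in mesenchymal cells was 2.27, just under the fold threshold. RSAD2, an antiviral enzyme, read 4.44, 4.18 and 4.08 against 3.96, 3.89 and 3.81 after EMT, and its parental difference was 3.65. The median of the list was 0.38 in parental and -0.49 in mesenchymal cells. Among 25 antigen presentation genes, 1 was called (4%, against 3.47% of all genes), HLA-DQA1 at -2.34 (fold 5.07). It was under the fold threshold without the first (-2.27) or the third (-2.24) mesenchymal HCC827 array, or without the third NCI-H358 array (-2.09).

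Of 42 genes of pyruvate and glucose metabolism, 1 was called (2.38%, against 3.47% of all genes). PDP1, the phosphatase that activates pyruvate dehydrogenase, read 10.46, 10.48 and 10.25 in mesenchymal NCI-H358 against 7.26, 7.43 and 7.42 (difference 3.03, parental 2.29). The pyruvate dehydrogenase kinases PDK1, PDK2, PDK3 and PDK4, which inactivate the same enzyme, differed by 1.02, 0.53, -0.05 and 0.77. PDK1 had the opposite order in parental cells (-0.94, interaction adjusted p = 4.92e-09). PDK4 read 4.35, 4.07 and 4.38 against 3.59, 3.58 and 3.34, after a fall in both lines from parental means of 7.32 and 7.86. SLC16A1, a lactate transporter, narrowed from -4.49 to -1.79 with a rise of 2.53 in NCI-H358. Of 43 amino acid genes 2 were called (4.65%). SLC38A4 was gained at 3.49 and SLC1A1 called at -3.99. Of 39 detoxification genes 3 were called (7.69%). The secreted glutathione peroxidase GPX3 was kept at 5.51, and the aldehyde dehydrogenase ALDH1A3 (-3.45) and the carbonyl reductase CBR3 (-2.35) were called lower. Without the first mesenchymal NCI-H358 array CBR3 was -2.28, under the fold threshold.

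Of 32 proliferation genes, 0 were called in either state, beside 3.47% of all genes in mesenchymal and 3.32% in parental cells. At an adjusted p below 0.05, 25 were lower and 2 higher in mesenchymal NCI-H358. Over all genes, 52.6% passed that threshold in either direction. The median difference of the proliferation genes was -0.52 in mesenchymal and 0.29 in parental cells. Of 20 cell cycle regulators, 0 were called in mesenchymal cells, beside 3.47% of all genes, and the median of the list was -0.46. The part of this shift in the other differences was not tested.

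Running medians over 25 measured genes in chromosome order were computed as a description at 18723 positions, and the mesenchymal and parental values had a Pearson r of 0.768 over these positions, which share genes and are not independent, beside the 0.685 over single genes. Whether neighbouring genes agree more than genes at large was not tested. The SD of the running medians was 0.238 in mesenchymal and 0.212 in parental cells. The highest runs in mesenchymal cells were on chromosome 8, from SLC25A32 to UTP23 (1.57, parental 1.18), from SLC7A13 to CIBAR1 (1.35, parental 0.52) and from GFUS to HSF1 (1.18, parental 0.91), and on chromosome 19 among zinc finger genes from ZFP82 to ZFP30 (1.09, parental 0.57). The lowest were on chromosome 7 from C7orf57 to CHCHD2, which holds EGFR (-1.13, parental -0.48), and on chromosome 1, from BCL10 to LRRC8C (-1.10, parental -0.70), from FOXD2-AS1 to TUT4 (-0.99, parental -0.64) and from KANK4 to DNAI4 (-0.98, parental -0.43). CACHD1, which widened with EMT, stands in the middle of the last of these.

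**Figure D5:**
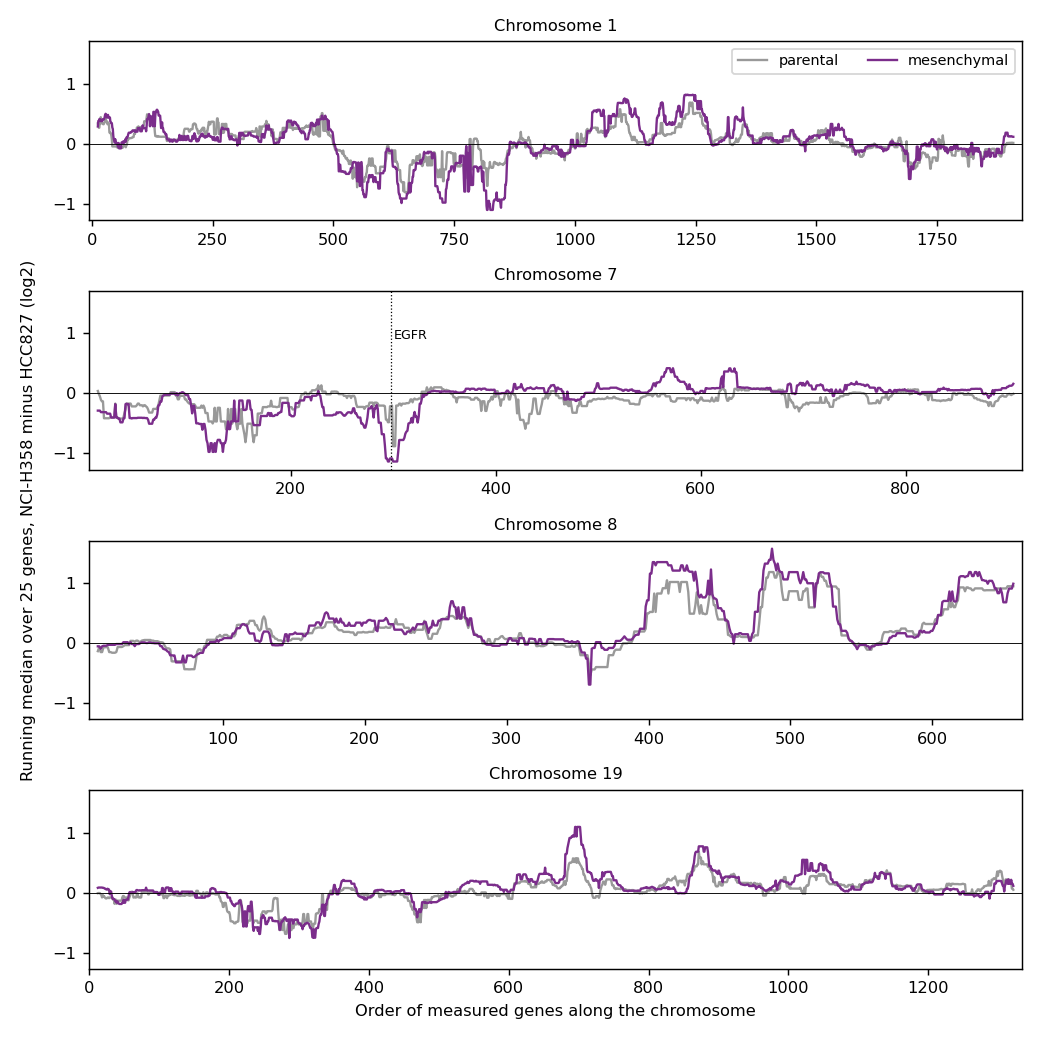
Running median over 25 neighbouring genes of the line difference (NCI-H358 minus HCC827, log2) along chromosomes 1, 7, 8 and 19, by gene order, in parental cells (grey) and mesenchymal cells (purple), with a dotted line at EGFR. Medians lie above 1 on chromosome 8 (highest 1.57 in mesenchymal cells) and below -1 at EGFR and on chromosome 1 (-1.13 and -1.10).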

How the data were processed

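Expression was measured on 18 arrays of the Affymetrix type U133 Plus 2.0, 3 for each of 6 groups. The table deposited by the authors holds RMA values on the log2 scale for 19849 genes, 1 probe set per gene. How the probe set was chosen is not given in the sources used here. Other probe sets of a gene were not analysed here. Array medians were 6.31 to 6.47. Columns were matched to samples by title, with 0 columns left over, and 19326 gene IDs were found in the RefSeq gene table, through which 26 symbols written as dates were read. The 36 genes of chromosome Y and XIST were kept in the tests and are not reported singly.

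The lines were compared with limma 3.58.1 in R 4.3.3 (lmFit, eBayes), in 1 fit of 18 arrays and 6 groups without covariates, so that all groups share the estimate of spread. The interaction contrast was the mesenchymal minus the parental line difference. Calls needed an adjusted p below 1e-05 and a fold above 5, the thresholds of the study. The genes and lists shown were chosen with earlier results of these data known. Named were, by log2 difference, the 5 highest and 5 lowest kept and gained genes, the 4 highest and 4 lowest lost genes by the parental difference, the reversed genes, up to 3 called members of a list in each direction, the ERBB list, the neighbours of EGFR, PDK1 to PDK4 and the markers of EMT. Some genes that this rule names, and 1 of the 27 lists, are not reported here. Other members of the lists were named after their values were seen, as were the histone genes, SNRPN, BEX2, BEX4, NID1, NID2, BGN, XYLT1 and RSAD2. Promoters are RefSeq sequences (GRCh38.p14), found for 15018 measured genes and searched in the 14992 of them that are not XIST or on chromosome Y. The steps were tested on simulated data. Alternatives were other thresholds, fits of 12 or 6 arrays, an intensity trend, a filter on dim genes, median centring, the methods' t-test and each array left out in turn. Arrays have no sequencing depth, and the 3 arrays per group limit the precision. A549 cells entered the fit only.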

Additional observations from a re-analysis of the deposited data

Results flagged for a closer look

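The line difference in mesenchymal cells minus that in parental cells (log2) passed the interaction test of limma (adjusted p below 0.05) for 23 genes named by the rule. Among kept genes it was -3.46 for SPOCK1, -3.33 for CADM1 and -5.81 for CACHD1.

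Among gained genes towards NCI-H358 it was 5.67 for SOX2, 5.75 for F2RL2, 5.30 for ID4, 4.69 for MMP8 and 4.79 for FRAS1. Towards HCC827 it was -6.60 for PLPP4, -6.65 for MMP2, -6.02 for COL3A1, -5.70 for TNFAIP6 and -4.68 for TMSB15A.

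Among lost genes that parental NCI-H358 held higher it was -4.70 for ADAM19, -3.96 for S100P, -4.81 for CYP4X1 and -5.54 for EDNRA. Where parental HCC827 was higher it was 6.74 for FGB, 5.73 for LCN2, 4.87 for ALOX5 and 4.53 for NAPSA. For the genes that changed order it was -5.16 for EPHA4 and -5.53 for CPT1A. Gained, lost and reversed genes pass this test by the way these classes were defined, so the values describe their size.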

How the results depend on the processing

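No paired analysis was possible because the labels give the arrays no replicate numbers. A fold above 2 gave 2855 mesenchymal and 2838 parental calls, with 1441 kept, 1121 lost, 1176 gained and 59 reversed. A fold above 10 gave 307, 313, 158, 52, 57 and 0, with 195 undecided. An adjusted p below 0.05 with a fold above 2 gave 3023, 3015, 1543, 1177, 1241 and 75, and 241 called list members in place of 82. The interaction at 1e-05 gave 1831 genes. A limit of 1.5-fold in the other state left 97 lost and 99 gained. The methods' t-test called 1 mesenchymal and 0 parental genes at 1e-05 and a fold above 5. At an unadjusted p below 0.05 it called 689 and 659, and after Benjamini-Hochberg adjustment at 0.05, 689 and 658. Without dim genes the SD was 1.03 and 1.01. With each array left out, mesenchymal calls ranged from 680 to 697, parental calls from 648 to 670, interaction genes from 6974 to 7733, kept from 322 to 326, lost from 152 to 164, gained from 159 to 171, reversed from 2 to 2 and undecided from 365 to 385. Of 924 alternative values for 132 named genes, 917 held their side of the thresholds and 7 lost the call (HLA-DQA1 in 4, ESRP1, CBR3, and MAGEA3 in the fit of 6 arrays, at an adjusted p of 3.09e-05), and 0 changed direction. Fits of 12 arrays, an intensity trend and median centring left the counts of calls and classes within 1.5 times. The cause of these shifts was not tested beyond the construction of the thresholds.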
